A study of Mus musculus with 17 samples.

Results

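The genes described here are 10 secreted signals of inflammation, measured in mouse liver: the CC chemokines Ccl2, Ccl7, Ccl3 and Ccl4, the CXC chemokines Cxcl1, Cxcl2 and Cxcl10, and the cytokines Il1b, Il6 and Tnf. They were taken by symbol, whatever their level, and are 10 of the 46073 genes in the deposited table. The study sequenced liver RNA of 17 male C57BL/6 mice (an inbred strain) 24 h after acetaminophen (APAP), a painkiller that injures hepatocytes at high dose, or after saline. Its title asks whether Nampt, which carries out the limiting step of NAD synthesis from nicotinamide, protects against that injury. Levels are FPKM, which scale the fragments of a gene to transcript length and to the fragments of the library, so that levels can be compared between genes.

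Nampt +/+ livers (called WT here) came from 3 mice given saline and 3 given APAP at 200 mg/kg. Nampt +/- livers (Het) came from 2 saline and 3 APAP mice, and Nampt OE livers from 2 and 2. In addition, 1 WT mouse had saline labelled IG, and 1 OE mouse had APAP at 300 mg/kg. Of the 17 mice 13 were 11 weeks old and 4 were 12 weeks old. In all 7 livers were perfused and 10 were not: under saline, perfusion was used in 2 of 3 WT, both Het and 1 of 2 OE livers, and under APAP in 0 of 3 WT, 1 of 3 Het and 1 of 2 OE livers, and in neither single library. Per the labels, mice were injected IP or IG, and the route of each APAP mouse is not given. The labels do not spell out OE, and they do not say what drives it or in which cells. No source says which libraries are separate mice beyond the sample labels themselves, and the p-values below therefore speak of the spread between libraries, part of which can be technical. Libraries of a group are numbered only to name them.

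Chemokines are small proteins that draw white blood cells into tissue through receptors on those cells. Ccl2 and Ccl7 draw monocytes through Ccr2, and Ccl3 acts on monocytes and other white blood cells through receptors that include Ccr1. Ccl4 is a close relative of Ccl3. Cxcl1 and Cxcl2 draw neutrophils through Cxcr2, and Cxcl10, an interferon-induced chemokine, draws activated T cells and natural killer cells through Cxcr3. Il1b and Tnf activate the transcription factor NF-kappaB in the cells they reach, and NF-kappaB in turn switches on several of these chemokine genes and Il6. In liver, Kupffer cells (the resident macrophages), incoming monocytes and neutrophils, endothelial cells and hepatocytes can make them, and Il6 drives the acute phase response of hepatocytes through Stat3.

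The genes lie in clusters of related genes on GRCm38. On chromosome 11, Ccl2 (ENSMUSG00000035385, 82035571 to 82037453, plus strand) and Ccl7 (82045712 to 82047525, plus strand) are 8.3 kb apart, and Ccl3 (83647844 to 83649355, minus strand) and Ccl4 (83662584 to 83664683, plus strand) are 13.2 kb apart. On chromosome 5, Cxcl1 (90891241 to 90893115, plus strand) and Cxcl2 (90903871 to 90905938, plus strand) are 10.8 kb apart, with Cxcl10 (92346638 to 92348889, minus strand) and Il6 (30013114 to 30019981, plus strand) further away. Il1b lies on chromosome 2 (129364570 to 129371139, minus strand) and Tnf on chromosome 17 (35199381 to 35202007, minus strand). Exons of Cxcl10 overlap Art3, and those of Il1b overlap Il1bos, each on the other strand. Libraries were made with a strand-marking kit, but whether the counting used strand is not given in the sources used here, so the values of Cxcl10 and Il1b are uncertain by the reads of those partners.

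The bases just before the start sites are shown because NF-kappaB is the regulator these genes share in textbooks. They are RefSeq sequences of GRCm38.p6, and 7 of the 10 genes were matched in the table by symbol (Ccl3, Cxcl1, Cxcl2, Cxcl10, Il1b, Il6 and Tnf). The NF-kappaB consensus was searched on both strands in the 250 bases before the RefSeq start site. It was found in 4 of the 7 genes, and in 3.9% of the 32851 promoters of the same length in the table. The 4 windows follow, 5′ to 3′ on the strand of the gene, with the matches in capitals and without the bases that the gene model already covers: Cxcl1 at chr5:90890995-90891240 (plus strand), Cxcl2 at chr5:90903649-90903870 (plus strand), Cxcl10 at chr5:92348890-92349139 (minus strand) and Il6 at chr5:30012864-30013113 (plus strand).
Cxcl1: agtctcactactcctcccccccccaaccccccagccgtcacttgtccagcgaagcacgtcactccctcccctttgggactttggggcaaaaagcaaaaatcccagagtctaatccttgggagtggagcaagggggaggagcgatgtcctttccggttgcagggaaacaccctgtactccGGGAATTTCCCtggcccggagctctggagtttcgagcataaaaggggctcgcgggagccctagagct
Cxcl2: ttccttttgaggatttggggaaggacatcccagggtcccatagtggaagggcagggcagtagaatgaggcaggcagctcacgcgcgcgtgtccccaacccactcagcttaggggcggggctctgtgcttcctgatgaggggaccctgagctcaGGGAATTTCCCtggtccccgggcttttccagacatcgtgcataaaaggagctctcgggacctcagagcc
Cxcl10: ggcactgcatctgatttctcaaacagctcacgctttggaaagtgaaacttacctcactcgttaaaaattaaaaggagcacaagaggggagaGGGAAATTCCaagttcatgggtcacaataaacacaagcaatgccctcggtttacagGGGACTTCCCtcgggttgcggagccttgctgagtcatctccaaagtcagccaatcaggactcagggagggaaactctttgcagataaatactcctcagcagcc
Il6: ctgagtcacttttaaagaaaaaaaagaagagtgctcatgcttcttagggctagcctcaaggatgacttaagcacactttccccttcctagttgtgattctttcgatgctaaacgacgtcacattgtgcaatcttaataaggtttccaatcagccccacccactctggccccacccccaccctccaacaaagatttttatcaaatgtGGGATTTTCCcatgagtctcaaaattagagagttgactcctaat
The match of Cxcl1 lies 71 to 61 bases before the start and that of Cxcl2 97 to 87 bases before it, and each run of capitals holds 2 overlapping matches. Cxcl10 has separate matches at 159 to 150 and at 103 to 94 bases before its start, and Il6 has 1 at 44 to 35. A match is a description of the letters and was not tested as a binding site. Among these 4 genes the response to APAP described below ranged from that of Cxcl1, which passed the test, to that of Il6, whose exact permutation p was 0.548.

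The libraries were first checked against their labels. Nampt stood at 15.3 to 18.0 FPKM in WT saline, 23.0 and 26.0 in Het saline and 22.4 and 27.2 in OE saline, and after APAP at 10.9 to 16.7 in WT, 11.3 to 15.4 in Het and 36.0 and 18.5 in OE. It was therefore not lower in the Het libraries, and WT, Het and OE below mean the libraries labelled so. The 12 hepatocyte markers summed to between 11502 and 36019 FPKM, with Alb listed at 0 in all 17 libraries. On the second principal component of the genes tested (12.7% of the variance), OE saline 2 (38.9) and OE APAP 1 (39.0) stood apart, the next library being at 15.5. Depth is unknown from FPKM. Genes above 0 numbered 15901 in the 300 mg/kg library to 27676 in Het APAP 2, with 26567 in Het APAP 1. No gene of the 10 met the rule for failed estimates at 0, which removed 96 genes from the tests. That rule asks for a mean of at least 10 FPKM elsewhere, or for such a gene as a neighbour. It therefore says little about the zeros of low genes such as Ccl4, listed at 0 in every WT saline library.

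Across the study Ccl2, Ccl7 and Cxcl1 rose after APAP in the averaged test given below, which Cxcl10 and Il1b did not pass. Ccl2, Ccl7 and Tnf, the last at a low level, did not overlap between saline and APAP at 200 mg/kg. Cxcl1, Cxcl10 and Il1b did overlap, and Il6 stayed near the bottom of the scale under both treatments. In saline livers Cxcl1 was the most abundant of the 10 (3.54 to 15.4 FPKM over the 7 libraries of the 3 genotypes), followed by Cxcl10 (1.43 to 5.03), Il1b (0.677 to 5.15) and Ccl2 (0.378 to 2.12). The ranges of Cxcl10 and Il1b overlapped throughout. The other 6 genes reached at most 0.631 FPKM in these libraries (Ccl7 in Het saline 1). After APAP at 200 mg/kg the medians over 8 libraries ran from Cxcl1 (45.7) through Ccl2 (17.2), Ccl7 (8.05), Cxcl10 (6.19), Il1b (5.25), Cxcl2 (1.58), Ccl4 (1.53) and Ccl3 (1.137) to Tnf (0.853) and Il6 (0.141). Neighbours in this order overlapped in range. The median of Ccl7 was thus above those of Cxcl10 and Il1b, although in WT APAP 1 and in both OE libraries Ccl7 stayed below both genes.

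**Figure D1:**
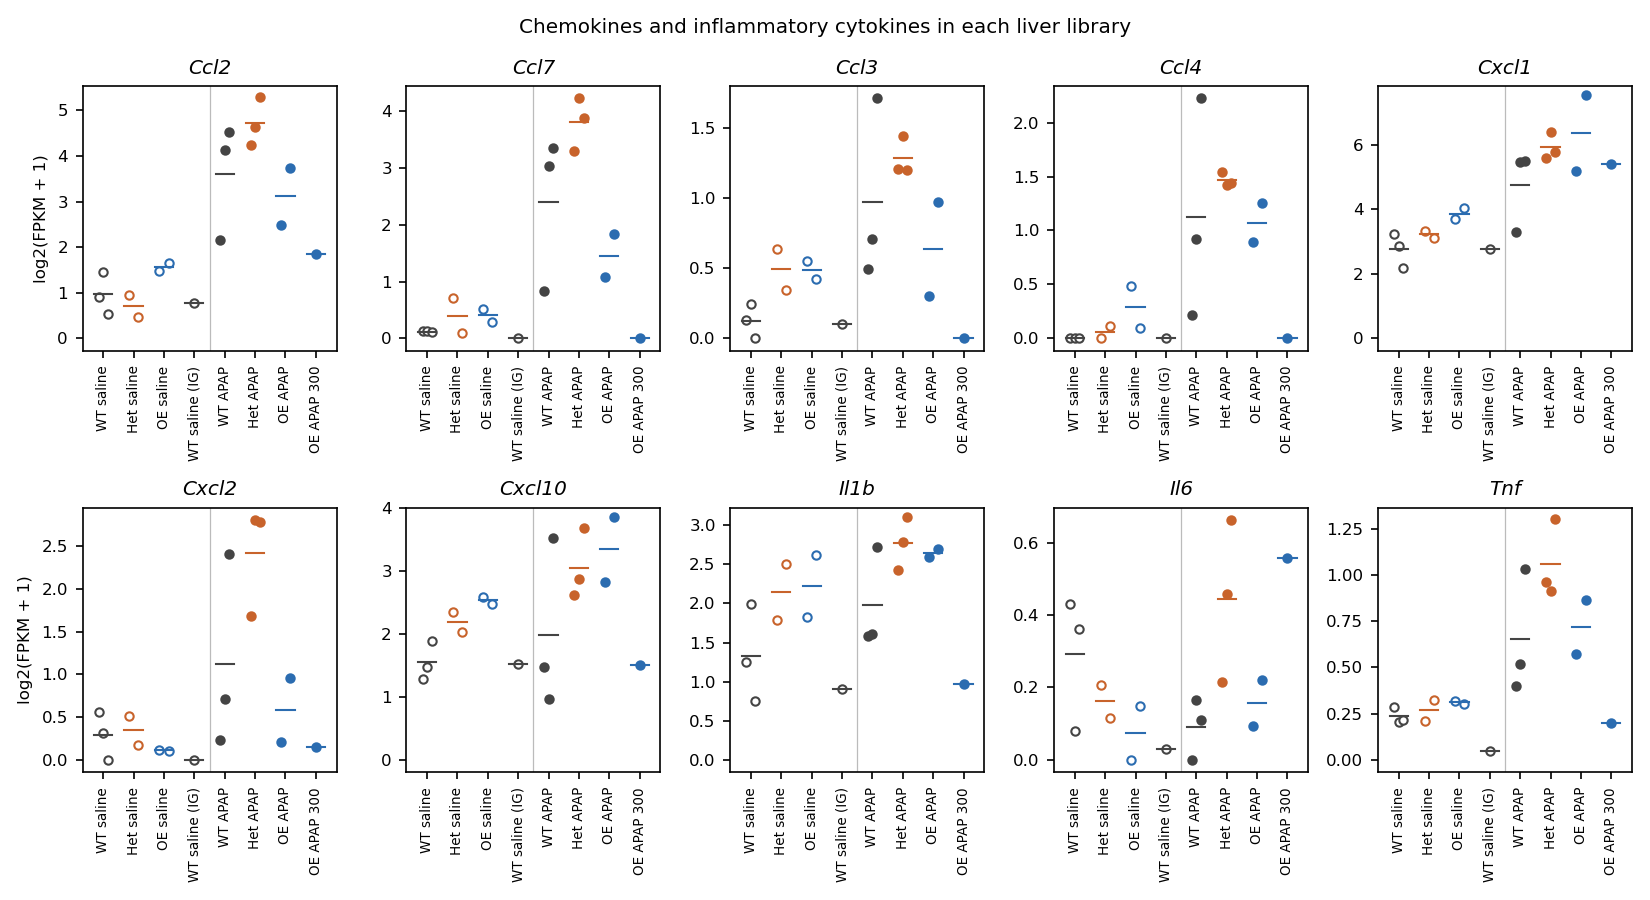
Level of each of the 10 genes in the 17 libraries as log2(FPKM + 1), by group, with 1 point per library, a bar at the group mean, open points for saline and filled points for APAP. Every APAP point at 200 mg/kg lies above every saline point of the 3 genotypes for Ccl2, Ccl7 and Tnf, and the single OE library at 300 mg/kg lies at 0 for Ccl7, Ccl3 and Ccl4.

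The first question is what APAP did to these genes over the 3 genotypes. It was answered with limma on log2(FPKM + 1), as the mean of the 3 differences APAP at 200 mg/kg minus saline, with a term for perfusion. Of the 10 genes 6 reached a mean of 1 FPKM and entered that test, and 3 of these rose, where 9.79% of the 11101 genes tested rose. The calls of Ccl2, Ccl7 and Cxcl1 held under every alternative that could be fitted and without each library in turn. The median difference of the 6 was 1.69, and that of all genes tested was -0.023. The filter mean includes the APAP libraries, and Ccl7 and Cxcl2, at most 0.631 and 0.480 FPKM under saline, passed it only through those. The 6 are therefore partly chosen for having risen. Ccl3, Ccl4, Il6 and Tnf were too low for the level filter. With no level filter, 5 of the 10 rose (Ccl2, Ccl7, Ccl4, Cxcl1 and Tnf), against 2.65% of 32167 genes. The median difference was then 0.9 for the 10 and 0.017 for all genes. At a minimum mean of 0.1 FPKM, 6 rose, against 1301 of 16686 genes. Without overlap, all 8 APAP libraries lay above all 7 saline libraries for 3 of the 10 genes (Ccl2, Ccl7 and Tnf), and for 0.699% of the 32167 genes above 0.

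Among the monocyte attractants, Ccl2 stood at 0.872, 1.75 and 0.439 FPKM in the WT saline libraries, at 0.930 and 0.378 in Het saline and at 1.78 and 2.12 in OE saline. After APAP it reached 3.43, 16.6 and 22.1 in WT, 17.8, 23.9 and 38.2 in Het and 4.59 and 12.4 in OE. The lowest APAP library, WT APAP 1, was above the highest saline library, OE saline 2. The averaged difference was 2.83 ± 0.43 (SE) on the log2(FPKM + 1) scale, which understates the change of low genes, with an adjusted p of 0.00200. The IG saline library (0.699) lay within the saline range, and the OE library given 300 mg/kg (2.60) lay just above it.

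Ccl7, which shares the receptor Ccr2, was nearly silent under saline. It stood at 0.0888, 0.0875 and 0.0745 FPKM in WT, 0.631 and 0.0642 in Het and 0.439 and 0.214 in OE. After APAP it reached 0.775, 7.17 and 9.25 in WT, 8.92, 17.9 and 13.8 in Het, and 1.11 and 2.58 in OE. All 8 APAP libraries were above all 7 saline ones, with WT APAP 1 and both OE libraries lowest. The averaged difference was 2.26 ± 0.41 (adjusted p = 0.00401). Ccl7 was listed at 0 in both the IG saline and the 300 mg/kg library.

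Ccl3 and Ccl4, which attract macrophages and T cells, stayed low. Ccl4 was listed at 0 in 4 of the 7 saline libraries and reached at most 0.400 FPKM there (OE saline 1). After APAP it stood at 0.165, 0.893 and 3.69 in WT, 1.92, 1.68 and 1.72 in Het and 0.852 and 1.39 in OE. Only WT APAP 1 fell inside the saline range. Over the 15 libraries the mean difference was 1.11 (exact permutation p = 0.000833 within genotypes, two-sided, the smallest that 1200 arrangements can give, unadjusted and 1 of 4 such tests).

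Ccl3 ran from 0 to 0.556 FPKM under saline and from 0.235 to 2.29 after APAP. Its APAP values were 0.410, 0.632 and 2.29 in WT, 1.32, 1.72 and 1.31 in Het and 0.235 and 0.968 in OE. In 6 of the 8 APAP libraries it was above every saline library, the exceptions being WT APAP 1 and OE APAP 1. The mean difference was 0.60 (exact permutation p = 0.00583). With no level filter limma did not call Ccl3 (0.69 ± 0.21, adjusted p = 0.0860) and called Ccl4 (1.19 ± 0.28, adjusted p = 0.0366). Both were listed at 0 in the 300 mg/kg library.

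Of the neutrophil attractants, Cxcl1 rose and Cxcl2 did not pass the averaged test. Cxcl1 stood at 8.44, 6.28 and 3.54 FPKM in WT saline, 9.10 and 7.63 in Het saline and 11.9 and 15.4 in OE saline. After APAP it reached 8.79, 43.3 and 44.2 in WT, 47.1, 83.0 and 53.7 in Het and 35.7 and 186 in OE. WT APAP 1 alone stayed inside the saline range, and OE APAP 2 was far above the other APAP libraries. The averaged difference was 2.64 ± 0.49 (adjusted p = 0.00490). The 300 mg/kg library had 41.3, above every saline library, and the IG saline library had 5.84.

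Cxcl2 was under 0.5 FPKM in all saline libraries, at 0.480, 0.238 and 0 in WT, 0.427 and 0.131 in Het and 0.0850 and 0.0726 in OE. After APAP it stood at 0.175, 0.640 and 4.30 in WT, 2.21, 6.04 and 5.90 in Het and 0.151 and 0.949 in OE. WT APAP 1 and OE APAP 1 lay inside the saline range, and the 3 Het libraries and WT APAP 3 lay well above it. The averaged difference was 1.11 ± 0.37 (adjusted p = 0.0520), and it passed without WT APAP 1, WT APAP 3, Het APAP 1 or OE APAP 1 (adjusted p of 0.0212, 0.0228, 0.0179 and 0.0467). The 300 mg/kg library had 0.113.

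The proportion of the 2 neutrophil attractants differed widely between libraries, a pattern chosen after its values were seen and not tested. After APAP, Cxcl1 was 21.4, 13.7 and 9.11 times Cxcl2 in the Het libraries, 50.1, 67.7 and 10.3 times in WT, 236 and 196 times in OE and 366 times in the 300 mg/kg library. The OE saline libraries stood at 140 and 212 times, against 17.6 to 58.4 in the WT and Het saline libraries where Cxcl2 was above 0. WT saline 3 and the IG saline library had Cxcl2 at 0 and so no ratio. The OE saline ratios rest on Cxcl2 at 0.0850 and 0.0726 FPKM, near the bottom of the scale. Of the summed FPKM of the 10 genes, Cxcl1 made up 83.0% in OE APAP 2 and 87.1% at 300 mg/kg, and 39.4% to 65.7% in the other 7 APAP libraries. Ccl7 made up 8.98% to 12.1% in the 3 Het libraries and in WT APAP 2 and 3, and at most 4.34% in the other APAP libraries.

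Cxcl10 did not pass the test. It stood at 1.43, 1.79 and 2.71 FPKM in WT saline, 4.08 and 3.07 in Het saline and 5.03 and 4.55 in OE saline, and after APAP at 1.78, 0.959 and 10.5 in WT, 5.12, 6.29 and 11.8 in Het and 6.10 and 13.6 in OE. WT APAP 2 was the lowest of all 17 libraries, while 6 of the 8 APAP libraries exceeded every saline library. The averaged difference was 0.67 ± 0.43 with a 95% interval of -0.29 to 1.63 (adjusted p = 0.302). In the 18 tested genes of the interferon response list, 0 rose and 0 fell, with a median difference of -0.06, where 9.79% and 13.3% of all genes did. In OE minus Het after APAP 4 of the 18 were lower and 0 higher (median -0.56), where 4.9% and 8.72% of all genes were. With lane in place of perfusion, that comparison called 3 of all genes lower and 0 higher.

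Il1b, the cytokine that the inflammasome matures, was near its saline level in several APAP livers. Under saline it stood at 1.38, 2.98 and 0.677 FPKM in WT, 2.45 and 4.70 in Het and 2.54 and 5.15 in OE. After APAP it stood at 2.01, 2.05 and 5.61 in WT, 4.37, 5.91 and 7.63 in Het and 5.03 and 5.47 in OE. The groups overlapped, with 4 of the 8 APAP libraries above every saline library. The averaged difference was 0.54 ± 0.29 with a 95% interval of -0.10 to 1.18 (adjusted p = 0.210). The 300 mg/kg library (0.957) and the IG saline library (0.871) were among the lowest of the 17.

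Tnf, a cytokine of activated macrophages, was low but cleanly separated. It ran from 0.154 to 0.253 FPKM in the 7 saline libraries. After APAP it stood at 0.321, 0.433 and 1.05 in WT, 0.949, 0.885 and 1.47 in Het and 0.487 and 0.821 in OE. All 8 lay above all 7. The mean difference was 0.54 (exact permutation p = 0.000833, unadjusted and with no account of perfusion or lane). Limma with no level filter, which has a perfusion term, gave 0.55 ± 0.12 (adjusted p = 0.0284). The 300 mg/kg library, at 0.147, lay below every one of these saline libraries, and the IG saline library had 0.0348.

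Il6 was low in every library and had the lowest of the 10 medians after APAP at 200 mg/kg. Its saline values ran from 0 to 0.348 FPKM and its APAP values from 0 to 0.585, the highest being Het APAP 3 and the second highest the 300 mg/kg library with 0.472. WT saline 1 (0.348) and 3 (0.286) exceeded all 3 WT APAP libraries (0, 0.122 and 0.0787), whereas the 3 Het APAP libraries (0.160, 0.375 and 0.585) exceeded both Het saline libraries (0.155 and 0.0834). The mean difference was 0.06 (exact permutation p = 0.548). At these levels a gene is close to the smallest values the table holds, and the depth behind them is unknown.

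**Figure D2:**
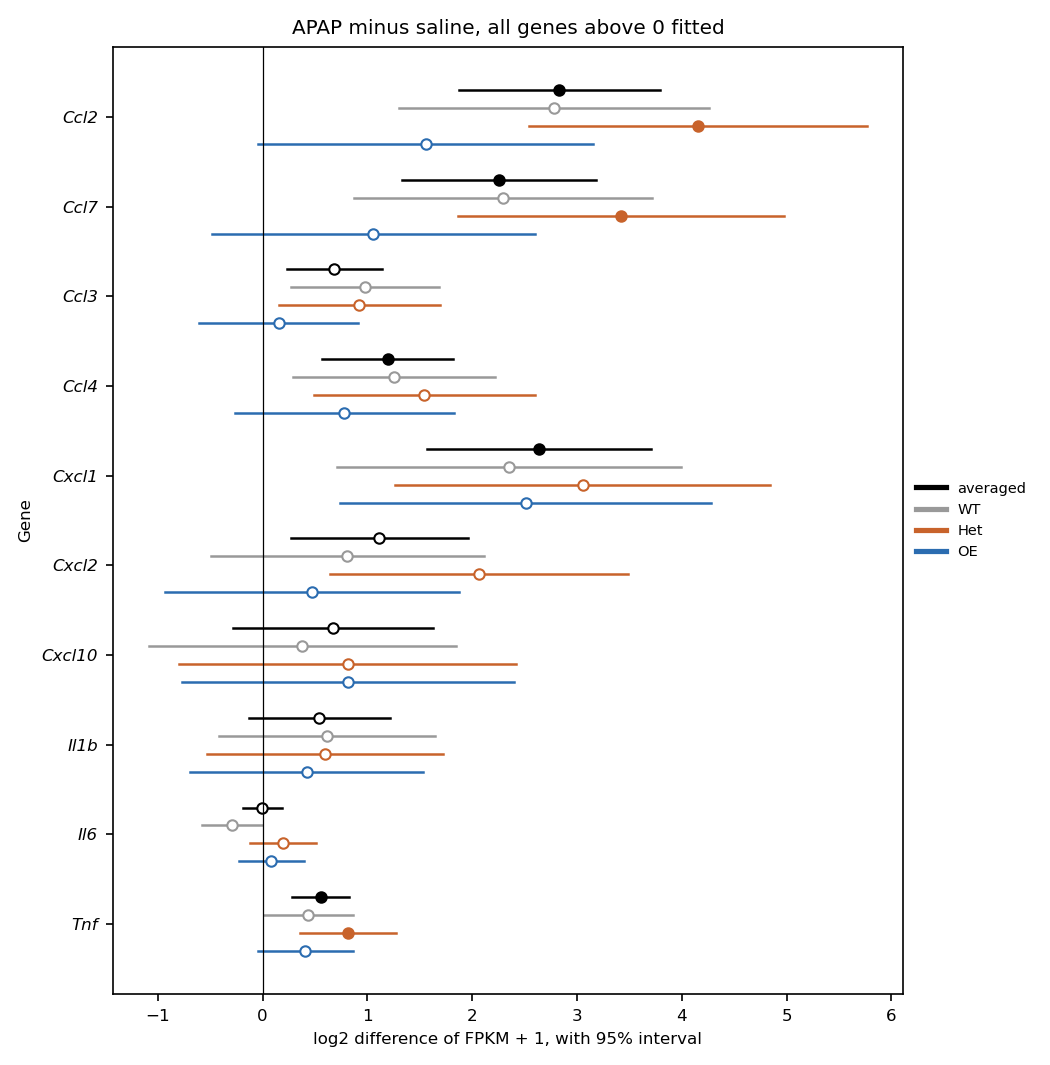
Difference APAP at 200 mg/kg minus saline for each gene, averaged and within the 3 genotypes, from the limma fit with no level filter on log2(FPKM + 1), with 95% intervals and filled points where the adjusted p passed 0.05. Of the 10 genes, 9 have points above 0 in the average and in WT, and 10 do in Het and in OE. The averaged points of Ccl2, Ccl7, Ccl4, Cxcl1 and Tnf are filled, and the points of Il6 lie closest to 0.

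Within genotypes, the same test called 1 of the 6 tested genes in WT, 4 in Het and 0 in OE. In WT, Ccl2 rose by 2.78 ± 0.67 (3 against 3 libraries, adjusted p = 0.0406), where 1.95% of all genes rose. Ccl7 (2.29 ± 0.63, adjusted p = 0.0608) and Cxcl1 (2.35 ± 0.75, adjusted p = 0.0958) did not pass. The call of Ccl2 was lost when 1 of 11 libraries was left out, that is any saline library of the 3 genotypes, WT APAP 2 or 3 or either OE APAP library, with adjusted p up to 0.187 (without WT saline 3). Without WT APAP 1 it was Ccl7 and Cxcl1 that also passed, at 3.08 each (adjusted p of 0.00126 and 0.0203), and Ccl7 passed without Het APAP 1 (adjusted p = 0.0474). WT APAP and WT saline livers shared no sequencing lane, so this response and lane cannot be told apart. Age differed too: WT saline 1 and 2 came from mice of 12 weeks and all WT APAP livers from mice of 11 weeks. The part of age was not tested. Without overlap, 6 of the 10 genes were higher in WT APAP (10.4% of all genes).

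In Het, Ccl2 rose by 4.16 ± 0.73 (3 against 2 libraries, adjusted p = 0.00425), Ccl7 by 3.42 ± 0.69 (adjusted p = 0.00730), Cxcl1 by 3.05 ± 0.82 (adjusted p = 0.0260) and Cxcl2 by 2.06 ± 0.62 (adjusted p = 0.0374), where 9.04% of all genes rose. The median difference of the 6 genes was 2.56, and that of all 10 with no level filter was 1.23. Het APAP livers exceeded Het saline livers without overlap in 9 of the 10 genes, all but Il1b, where 24.4% of all genes did so. The calls of Ccl2 held without each library in turn, that of Ccl7 was lost without Het saline 2 (adjusted p = 0.0603), and that of Cxcl1 without either Het saline library or Het APAP 3 (adjusted p of 0.0986, 0.116 and 0.0532). That of Cxcl2 was lost without any 1 of 10 libraries, all but the WT APAP libraries and Het APAP 1 and 2 (adjusted p from 0.0549 to 0.163). With lane in place of perfusion, which rests on Het APAP 1 and the 2 Het saline livers of the same lane, the differences were 3.53, 2.91, 2.37 and 1.34 and none of the 4 passed. Cxcl1 and Cxcl2 also missed the threshold with no level filter (adjusted p of 0.0550 and 0.0918) and without OE saline 2 and OE APAP 1 (0.0501 and 0.112), and Cxcl2 at a minimum mean of 0.1 FPKM (0.0504) and with quantile normalisation (0.0501).

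In OE, limma called 0 of the 11101 genes in either direction (0.0%), and 0 of the 6 genes. An unadjusted p under 0.05 was found for 533 genes, no more than that threshold gives where nothing differs. Cxcl1 had 2.51 ± 0.81 (2 against 2 libraries), Ccl2 1.55 ± 0.72 and Ccl7 1.06 ± 0.68, with adjusted p of 0.932, 1 and 1. The 2 OE pairs were unlike. Between the perfused libraries of lane 8, Cxcl1 differed by 3.86 and Ccl2 by 2.27, and between the non-perfused libraries of lane 4, by 1.16 and 0.84. The second pair consists of OE saline 2 and OE APAP 1, the libraries that stood apart from the rest. Of the 10 genes, 7 were higher in OE APAP without overlap (7.13% of all genes). Without that pair the averaged differences were 2.96 for Ccl2, 2.18 for Ccl7 and 2.93 for Cxcl1, each still called (adjusted p of 0.0148, 0.0343 and 0.0131).

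The responses were then compared with each other. The difference of response called 0 of the 6 genes for Het against WT (0.0% of all genes), for OE against WT (0.0%) and for OE against Het (0.018%). For OE against Het the difference of response was -2.60 for Ccl2 (95% interval -4.88 to -0.32, adjusted p = 0.220) and -2.36 for Ccl7 (-4.52 to -0.20, adjusted p = 0.239). The 3 responses are therefore not shown to differ, and the intervals leave room for large differences in either gene. Under saline 0 of the 6 genes differed between Het and WT (0.036% of all genes called) or between OE and WT (0.036%). The largest of these differences were those of Cxcl1 (1.19 ± 0.74), Cxcl10 (0.97 ± 0.66) and Il1b (0.88 ± 0.44) in OE minus WT, and of Il1b (0.83 ± 0.45) in Het minus WT.

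After APAP, the genotype labels were compared directly. These comparisons share libraries, so their values are given side by side. Het minus WT was positive for all 6 genes and called for 0 (0.00901% of all genes were called higher). The differences were 1.05 ± 0.61 for Ccl2, 1.40 ± 0.58 for Ccl7, 0.99 ± 0.68 for Cxcl1, 1.32 ± 0.52 for Cxcl2, 1.09 ± 0.60 for Cxcl10 and 0.82 ± 0.41 for Il1b. Leaving out WT APAP 3 brought Cxcl2 (1.96, adjusted p = 0.0128) and Cxcl10 (1.86, adjusted p = 0.0173) past the threshold. The whole comparison moved in that setting: of 11066 genes 291 were called higher and 540 lower, against 1 and 5 in the main fit. Within lane 5, the 2 Het livers exceeded the 3 WT livers on average by 1.66 for Ccl7, 1.68 for Cxcl2 and 1.28 for Cxcl10.

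OE minus Het had both signs. Ccl7 was lower in OE by 2.35 on the log2 scale (-2.35 ± 0.63, 2 against 3 libraries, adjusted p = 0.0357), and was the only one of the 6 to pass, where 4.9% of all genes were lower. The call was lost with lane in place of perfusion (-1.60, adjusted p = 0.529) and without OE saline 2 and OE APAP 1 (-1.73, adjusted p = 0.474). Over all genes, 968 were higher and 544 lower (64.0% higher), and 588 and 830 with upper quartile scaling (41.5% higher). These counts were 4 and 1 without OE APAP 1, 0 and 3 with lane, and 1 and 0 without OE saline 2 and OE APAP 1. Cxcl2 stood at -1.84 ± 0.57 (adjusted p = 0.0539) and Ccl2 at -1.64 ± 0.66 (adjusted p = 0.126), while Cxcl1 stood at 0.37 ± 0.74, Cxcl10 at 0.31 ± 0.66 and Il1b at -0.12 ± 0.44. The sign of Cxcl1 turned with quantile normalisation (-0.025), without Het APAP 1 (-0.18) and without OE APAP 2 (-0.71). Both OE values of Ccl7 (1.11 and 2.58 FPKM) lay under all 3 Het values (8.92 to 17.9), and OE APAP 2 had the highest Cxcl1 and Cxcl10 of all 17 libraries. The call of Ccl7 was lost without any 1 of 8 libraries (WT saline 1 or 2, Het saline 1 or 2, Het APAP 2 or 3, OE APAP 1 or 2), with adjusted p from 0.0514 to 0.433, the last without OE APAP 1 (-1.84). Cxcl2 passed without WT APAP 1, WT APAP 3 or Het APAP 1, and Ccl2 without WT APAP 1 (adjusted p of 0.0364, 0.00803, 0.0203 and 0.0280). Within lane 8, OE APAP 2 minus Het APAP 1 was -1.47 for Ccl7, -0.72 for Cxcl2 and 1.96 for Cxcl1.

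OE minus WT was called for 0 of the 6 genes, and for 0.00901% of all genes. Ccl2 stood at -0.59 ± 0.70, Ccl7 at -0.95 ± 0.66 and Cxcl2 at -0.52 ± 0.60, while Cxcl1 stood at 1.35 ± 0.79, Cxcl10 at 1.40 ± 0.69 and Il1b at 0.69 ± 0.47. The signs of Ccl2 and Cxcl2 turned without OE APAP 1 (0.22 and 0.089), and that of Cxcl2 also without WT APAP 3 (0.12).

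**Figure D3:**
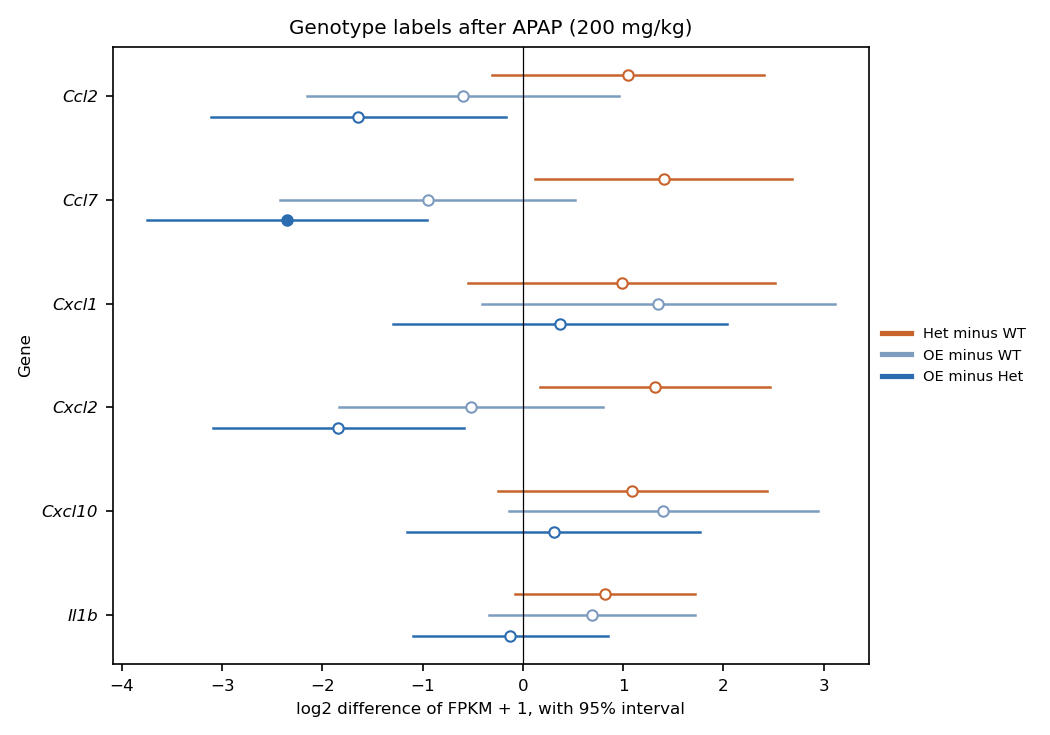
Differences between the genotype labels after APAP at 200 mg/kg for the 6 genes that reached a mean of 1 FPKM, as log2 differences of FPKM + 1 with 95% intervals, filled where the adjusted p passed 0.05. The only filled point is Ccl7 in OE minus Het at -2.35, and all 6 points of Het minus WT lie above 0.

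APAP livers of the same label differed widely among themselves. In the 9 APAP libraries ranked by level, WT APAP 1 was among the lowest 3 for all 10 genes, and its 10 genes summed to 17.9 FPKM, within the 7.88 to 28.3 of the saline libraries. WT APAP 2 and 3 summed to 72.8 and 103, and WT APAP 3 was among the highest 3 for 8 genes. Het APAP 3 was among the highest 3 for 9 genes and Het APAP 2 for 7, with sums of 136 and 148. OE APAP 1 was among the lowest 3 for 7 genes (sum 54.3). OE APAP 2 had the highest sum of all (225) through Cxcl1, and held places 5 and 6 for Ccl2, Ccl7, Ccl3, Ccl4, Cxcl2 and Tnf. The library at 300 mg/kg was last for 7 of the 10 genes. It is 1 library, it had the fewest genes above 0, and no test was made on it.

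**Figure D4:**
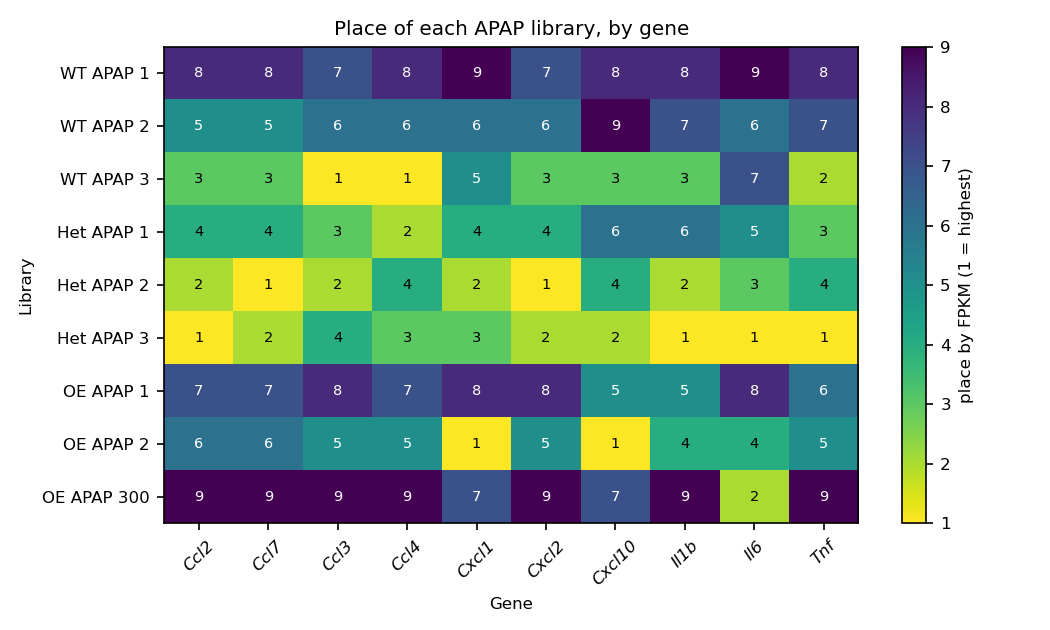
Place of each of the 9 APAP libraries by FPKM for each gene, with 1 for the highest and 9 for the lowest. WT APAP 1 and the 300 mg/kg library hold most of the last places, Het APAP 2 and 3 most of the first, and OE APAP 2 is first for Cxcl1 and Cxcl10.

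Markers of monocytes and neutrophils also rose in the averaged response. Of the 16 monocyte and infiltrating macrophage markers 14 were tested, and 11 rose and 0 fell in the averaged response (9.79% and 13.3% of all genes). Their median difference was 1.29, and 4 rose without OE APAP 2, 6 when OE saline 2 was left out and 7 without the pair that stood apart. Calls over all genes fell too, from 1087 higher to 331, 518 and 692 in the same settings, in that order. Among the markers Chil3, a secreted lectin of activated macrophages, had 2.57 ± 0.40, and Ccr2, the receptor of Ccl2 and Ccl7, 1.30 ± 0.27 (adjusted p of 0.00208 and 0.00649). The list summed to 155 to 225 FPKM in WT saline, 172 to 244 in Het saline and 169 to 217 in OE saline, and to 287 to 674 in WT APAP, 526 to 800 in Het APAP and 161 to 303 in OE APAP, with 225 at 300 mg/kg. Het APAP 2 and 3 had the highest sums, WT APAP 3 was above Het APAP 1, and OE APAP 1 lay within the saline range. OE APAP 2, which had the highest sum of the 10 signal genes, was below every Het APAP library in monocyte markers. In OE minus Het, 11 of the 14 were lower and 0 higher (4.9% and 8.72% of all genes), with a median of -1.85, in the comparison where Ccl7 was lower. That count was 0 without OE APAP 1, without the pair of OE saline 2 and OE APAP 1 and with lane in place of perfusion, with medians of -1.48, -1.31 and -1.05. It was 5 without Het APAP 3, and 6 without Het APAP 2, with no level filter or with only the groups compared. Over all genes 204, 283, 464 and 45 were lower in these settings, in that order, against 544 in the main fit. The part of monocytes and macrophages in the values of Ccl2 and Ccl7 was not tested. In whole liver, more cells of a type and more RNA per cell cannot be told apart.

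Of the 13 neutrophil markers 4 were tested and 3 rose, where 9.79% of all genes rose. These were S100a8 (3.53 ± 0.82), S100a9 (3.58 ± 0.83) and the receptor Csf3r (1.30 ± 0.26), with limma adjusted p of 0.0159, 0.0159 and 0.00493. Csf3r is also in the list of cytokine receptors and inhibitors, so the counts of the 2 lists are not independent. Without OE APAP 2 none of the 4 was called (331 of all genes rose). Without OE saline 2 there was 1 (518 of all genes rose), and 1087 of all genes rose in the main fit. The list summed to 2.33 to 3.11 FPKM in WT saline and 9.55, 17.8 and 109 in WT APAP, to 2.63 and 3.82 in Het saline and 82.7, 469 and 212 in Het APAP, and to 10.02 and 2.09 in OE saline and 6.46 and 74.4 in OE APAP. The 300 mg/kg library had 8.84. The 4 APAP libraries with the highest sums, the 3 Het libraries and WT APAP 3, were also the 4 with the most Cxcl2. This was not particular to Cxcl2: the same 4 were highest for Ccl2, Ccl7, Ccl3, Ccl4 and Tnf and for the monocyte marker sum. Ly6g and Camp, which define mature neutrophils and their precursors, were listed at 0 in 13 of the 17 libraries each. The part of these cells in the values of Cxcl1 and Cxcl2 was not tested.

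Markers of the resident macrophages did not pass the test. Of the 14 Kupffer cell markers 0 rose and 0 fell (median 0.08), where 9.79% and 13.3% of all genes did. The list summed to 190 to 438 FPKM over all 17 libraries. Not every marker was level. Clec4f, picked after its values were seen and not called, was 34.4 to 44.8 in WT saline and 12.9 to 29.3 in WT APAP. In Het it was 49.4 and 54.7, then 20.5 to 30.4, and in OE 55.6 and 25.4, then 26.2 and 43.9. None of the 15 lymphocyte markers reached a mean of 1 FPKM, and the list summed to 1.49 to 7.12 FPKM. Of 11 hepatocyte markers 5 fell and 0 rose (median -0.41), where 13.3% of all genes fell. Without OE APAP 2 and without OE saline 2, 539 and 773 of all genes fell (1474 in the main fit), and 2 and 3 of these markers. In OE minus Het 6 of them were higher and 0 lower, where 8.72% of all genes were higher, and 0 were higher without OE APAP 1, without the pair that stood apart, with lane or with only the groups compared. Of 13 stellate cell and matrix markers 6 rose and 3 fell, where 9.79% and 13.3% of all genes did. Without OE saline 2 the counts were 3 and 2, without OE APAP 2 they were 4 and 0, without Het saline 2 they were 4 and 1, without WT saline 3 they were 6 and 1, and with upper quartile scaling 8 and 1. Over all genes these settings gave 518 and 773, 331 and 539, 755 and 1098, 878 and 1078, and 1413 and 1092. Of 12 endothelial markers 1 rose and 3 fell, of 3 cholangiocyte markers 1 rose and of 5 erythroid markers 1 fell, against 9.79% and 13.3% of all genes.

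**Figure D5:**
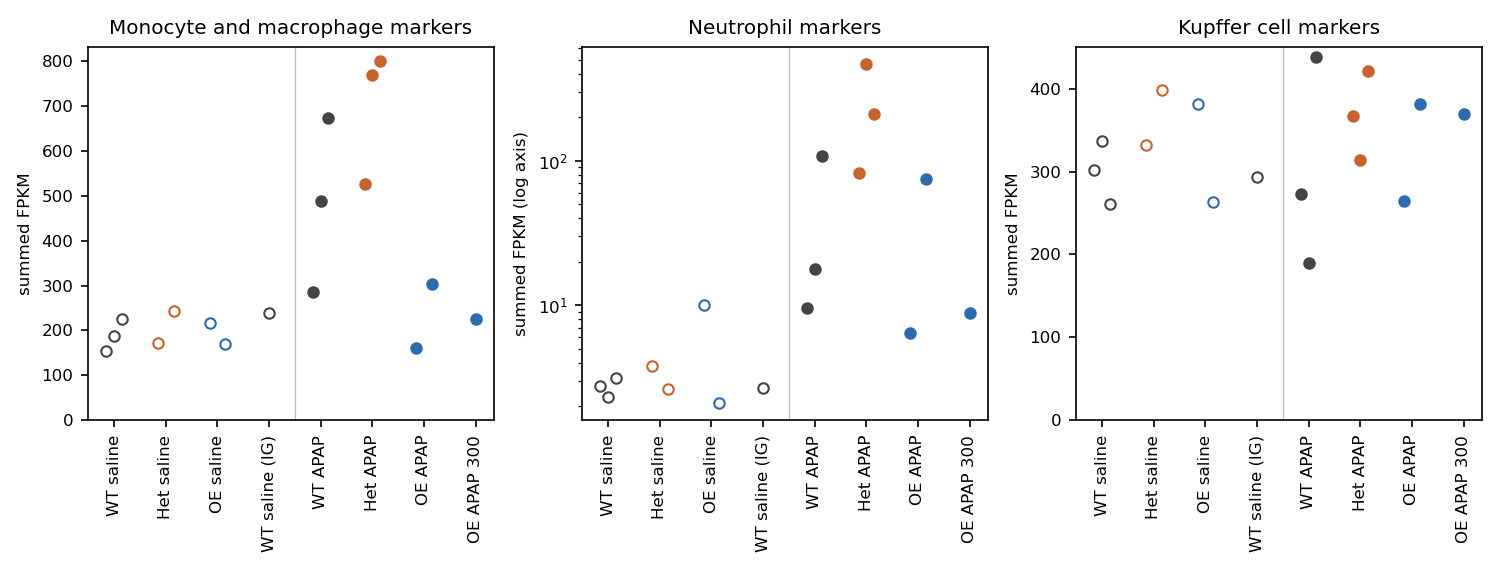
Summed FPKM of 3 lists of marker genes in each library by group, with open points for saline and filled points for APAP, and a log axis for the neutrophil list. Monocyte and macrophage markers reach 526 to 800 in Het APAP and 161 to 303 in OE APAP, neutrophil markers reach 469 in Het APAP 2, and Kupffer cell markers overlap between saline and APAP libraries.

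The receptors and other ligands of these pathways were described from lists of related genes, whose counts in the averaged response stand against 9.79% of all genes that rose and 13.3% that fell. As numbers of genes these shares are 1087 and 1474. They were 331 and 539 without OE APAP 2, 518 and 773 without OE saline 2, and 692 and 947 without the pair that stood apart. Of 29 other chemokines 12 were tested, 3 rose and 1 fell, with a median difference of 0.36. Cxcl14 had 1.02 ± 0.22, Ccl9 1.16 ± 0.27, Ccl6 1.48 ± 0.42 and Cxcl12, which keeps blood progenitors in place, -0.48 ± 0.11, with adjusted p of 0.00637, 0.0113, 0.0309 and 0.00994. Without OE APAP 2 none of the 12 was called, and without OE saline 2 there was 1 in each direction. Of 18 chemokine receptors 4 were tested and 3 rose, and 1 rose without OE APAP 2, without OE saline 2 or without the pair that stood apart. Cxcr4, the receptor of Cxcl12, had 1.09 ± 0.19, Ccr2 1.30 ± 0.27 and Ccr1 1.25 ± 0.31 (adjusted p of 0.00219, 0.00649 and 0.0143). The receptors of Cxcl1, Cxcl2 and Cxcl10, which are Cxcr2 and Cxcr3, did not reach a mean of 1 FPKM. In OE minus Het, Ccr1 (-1.92 ± 0.47), Ccr2 (-1.70 ± 0.42) and Cxcr4 (-0.99 ± 0.29) were lower (adjusted p of 0.0246, 0.0239 and 0.0405). None of the 3 passed without OE APAP 1 (adjusted p of 0.426, 0.352 and 0.467), without the pair that stood apart (0.467, 0.360 and 0.492), with lane (0.527, 0.520 and 0.443), with no level filter or with only the groups compared. The call of Ccr2 was also lost without Het APAP 2 or Het APAP 3, where Ccr1 did not reach a mean of 1 FPKM, and that of Cxcr4 without any of WT saline 1 and 2, the Het libraries and OE APAP 2. Ccr1 thus passed the level filter only through Het APAP libraries, the group it was then called lower than. Its call in OE minus Het is therefore not independent of the filter. Ccr2 is also in the monocyte list, so these counts are not independent.

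Of 28 other cytokines 8 were tested and 3 rose: the alarmin Il33 (0.86 ± 0.16), the macrophage growth factor Csf1 (0.72 ± 0.13) and Tgfb1 (0.78 ± 0.16), with adjusted p of 0.00269, 0.00281 and 0.00446. Of 21 cytokine receptors and inhibitors 18 were tested, 12 rose and 2 fell, with a median of 0.61, and 3 rose and 1 fell without OE APAP 2 and 6 and 2 without OE saline 2. Osmr, the oncostatin M receptor, had 1.16 ± 0.13, the Il1b receptor Il1r1 1.67 ± 0.26, its partner chain Il1rap -1.04 ± 0.16, and Il6st, the signalling chain of the Il6 receptor, 0.65 ± 0.12 (adjusted p of 2.35e-04, 0.00155, 0.00128 and 0.00362). The 2 chains of the Il1b receptor thus moved in opposite directions.

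Downstream, genes of NF-kappaB and of Stat3 rose in part. Counts with libraries left out stand against the numbers of all genes given above for the same settings. Of 20 genes of the NF-kappaB pathway and its feedback 18 were tested, 7 rose and 0 fell (median 0.37), and 2 rose without OE APAP 2 and 4 without OE saline 2. Among these were the adhesion molecules Vcam1 (1.21 ± 0.21) and Icam1 (1.29 ± 0.26), the inhibitor Tnip1 (0.72 ± 0.15) and the regulator Nfkbiz (0.97 ± 0.23), with adjusted p of 0.00228, 0.00564, 0.00499 and 0.0113. Of 15 genes of Il6 and Stat3 signalling 11 rose and 0 fell (median 1.08), and 6 rose without OE APAP 2, while Il6 itself reached at most 0.585 FPKM. The fibrinogen chain Fgg had 1.68 ± 0.22, Stat3 0.94 ± 0.13, haptoglobin (Hp) 1.59 ± 0.27 and serum amyloid Saa1, which can share reads with its close copy Saa2, 6.01 ± 0.94 (adjusted p of 6.3e-04, 8.0e-04, 0.00187 and 0.00285). Of 17 innate sensors and inflammasome genes 14 were tested, 7 rose and 1 fell: Lbp, which carries lipopolysaccharide, had 1.08 ± 0.26, Casp4 0.96 ± 0.26, Ly96 0.78 ± 0.22 and Hmgb1 -0.37 ± 0.10 (adjusted p of 0.0120, 0.0216, 0.0241 and 0.0199). That list's 7 higher genes were 0 without OE APAP 2, 1 with no level filter, 2 without OE saline 2 or Het saline 1, and 4 without WT saline 3, Het saline 2 or the pair that stood apart. Over all genes 852 of 32167 rose with no level filter and 762 of 11117 without Het saline 1.

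The genes whose profile was most like that of each tested gene were found by the mean absolute difference between standardised log2(FPKM + 1) values over the 17 libraries, where 0 is an identical profile. For Ccl2 these were Tgm2 (0.224), Thbs1 (0.225) and Osmr (0.254), and for Ccl7 Tgm2 (0.106), Thbs1 (0.149) and Plek (0.166). Ccl2 and Ccl7 lay at 0.244 from each other, and the median gene lay at 1.16 and 1.15. For Cxcl1 they were Nfkbiz (0.292), Mt1 (0.347) and Arid5a (0.359), and for Cxcl2 Srgn (0.138), C5ar1 (0.1501) and Clec4d (0.152). Cxcl1 and Cxcl2, 10.8 kb apart on the chromosome, lay at 0.676 from each other, further than Cxcl2 from Ccl7 (0.289). For Cxcl10 they were Mx2 (0.338), Pla2g7 (0.480) and Neurl3 (0.484), and for Il1b Cdc42se1 (0.333), Trim27 (0.423) and Riok1 (0.425). The values are descriptions over libraries that share groups and lanes, with no test.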

How the data were processed

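Per the labels' protocols, total RNA of liver went through a strand-marking kit and paired-end sequencing. The submitters' processing notes name Cufflinks 2.2.1, Cuffdiff, TopHat2 2.0.9, bcl2fastq 2.17.1.14 and the build GRCm38.p5. Neither the annotation, nor Cuffdiff's version, nor whether counting used strand is given in the sources used here. From these tools the authors made a table of 1 number for each gene in each liver, taken here as FPKM. That unit was inferred from the tools and the range of the values, whose sums ran from 466883 to 916006 per library with 10631 to 11496 genes at 1 FPKM or more. FPKM carry no depth, so no counting interval is given. Of 46073 gene IDs 45139 had a symbol, and positions are from GENCODE on GRCm38.

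Genes at exactly 0 throughout a genotype and treatment block with a mean of at least 10 FPKM elsewhere (89), and 7 neighbours within 100 kb with the same zeros, were removed as failed estimates. That rule was chosen after seeing the data. Tests covered the 11101 genes whose mean over 17 libraries reached 1 FPKM, as log2(FPKM + 1), with limma 3.58.1 (statmod 1.5.0, R 4.3.3): 8 group means, a perfusion term, trended and robust variances, 8 residual degrees of freedom, and Benjamini-Hochberg adjustment at 0.05. Perfusion follows lane: livers of lanes 7 and 8 were perfused and those of lanes 4 to 6 were not. Genes under that level were tested by exact permutation of treatment within genotype. That test has no term for perfusion or lane, which differ between the treatments, so its p-values do not allow for either. The limma script was tested on simulated data.

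The members and lists were chosen with earlier results of these data known. The genes named are all 10 members, up to 4 genes with the smallest p of each pathway list among those that passed, and the 3 genes with the most similar profile to each tested member. Outside that rule, and after their values were seen, the text names Nampt, Alb, Cxcr2, Cxcr3, Il1rn, Il18bp, Socs3 and some genes of the marker lists. Alternatives covered the pseudocount, level filter, scaling, perfusion, lane, pooling, weights and each library left out. The values of 1 listed gene are not reported here.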

Additional observations from a re-analysis of the deposited data

How the results depend on the processing

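Every p-value rests on 2 or 3 libraries per group and on FPKM without depth, so genes near 0, such as Il6, Ccl3 and Ccl4, have unknown counting error. Perfusion and lane cannot be told apart, and the averaged and WT responses could not be fitted with lane in place of perfusion. No paired analysis was possible because the labels give no replicate numbers. Lane, which the Het and OE livers share across treatments, was fitted in place of perfusion instead. The calls of Ccl2, Ccl7 and Cxcl1 in the averaged response held under every alternative fitted, and of the 6 tested members only Cxcl2 changed sides there, past the threshold in 7 alternatives. In the averaged response 1087 genes were higher and 1474 lower (42.4% higher), and 56.4% were higher with upper quartile scaling. That scaling moved the share from 35.5% to 50.3% in WT, from 40.9% to 58.7% in Het and from 64.0% to 41.5% in OE minus Het, and the median of all genes from -0.055 to 0.092 in Het and from 0.047 to -0.080 in OE minus Het. The number of genes called there, 2561, was 1639 without OE saline 2 and OE APAP 1 and 870 to 2694 without each library in turn (870 without OE APAP 2, 1291 without OE saline 2). Over all alternatives it was 20 to 1237 in WT (611), 838 to 3523 in Het (2455), 0 to 12 in OE (0), 1 to 1493 for Het minus WT (6), 0 to 92 for OE minus WT (1) and 1 to 2246 for OE minus Het (1512). Members called in the averaged response (3) were 5 with no level filter (852 of 32167 genes rose) and 6 at a minimum mean of 0.1 FPKM (1301 of 16686). In WT (1) they were 0 with no level filter, at a minimum of 0.1 FPKM, with quantile normalisation, with only the groups compared and without the 2 libraries apart, 2 with a pseudocount of 0.1, no perfusion term or array weights, 3 with the single-library labels pooled, and 0 to 3 without each library in turn. In Het (4) they were 0 with lane, 3 with no level filter or quantile normalisation, 5 at a minimum of 0.1 FPKM or with only the groups compared, 2 without the 2 libraries apart and 1 to 4 without each library. For Het minus WT (0) they were 2 with array weights, where 546 of all genes were higher, and 0 to 2 without each library. For OE minus Het (1) they were 0 with a pseudocount of 0.1, no level filter, lane, only the groups compared or the 2 libraries apart left out, 2 with no perfusion term or array weights, 3 with labels pooled, and 0 to 3 without each library. Differences that turned sign were not called in either setting. In WT these were Cxcl10, at -0.032 with array weights and -0.39 to 0.89 without each library, and Il1b, at -0.067 to 0.87. In OE they were Cxcl2 (-0.028 to 0.98) and Il1b (-0.099 with labels pooled, -0.055 to 0.90). For OE minus WT they were Ccl2, at 0.52 with lane, 0.18 without the 2 libraries apart and -1.32 to 0.22, Ccl7, at 0.057 with lane, and Cxcl2, at 0.78 with lane, 0.19 without the 2 libraries and -0.96 to 0.12. For OE minus Het they were Cxcl1, at -0.025 with quantile normalisation and -0.71 to 1.604, Cxcl10, at -0.32 with labels pooled and -0.36 to 1.07, and Il1b, at 0.043 with lane and -0.38 to 0.035. The cause was not tested in any of these.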

Other observations

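Among the genes that restrain these cytokines, chosen for this paragraph after their values were seen, Il1rn, the secreted antagonist of the Il1b receptor, rose by 2.08 ± 0.50 in the averaged response (limma, adjusted p = 0.0156), while Il1b itself did not pass. Under saline Il1rn stood at 0.585, 1.03 and 0.653 FPKM in WT, 1.25 and 0.991 in Het and 4.45 and 0.926 in OE. After APAP it stood at 1.63, 2.10 and 9.80 in WT, 8.26, 12.7 and 10.5 in Het and 1.75 and 21.7 in OE, with 2.63 at 300 mg/kg. OE saline 1 lay above WT APAP 1 and 2 and OE APAP 1, so the treatments overlapped. Il18bp, which binds and blocks Il18, rose by 0.69 ± 0.16 (adjusted p = 0.0107), and Socs3, which blocks signalling to Stat3, by 2.18 ± 0.42 (adjusted p = 0.00549).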
